A study of Mus musculus with 6 samples.

Results

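The IL-2 family receptor chains described here are 8 genes, Il2ra, Il2rb, Il2rg, Il4ra, Il7r, Il9r, Il15ra and Il21r. They were found among 17759 listed genes by their gene identifiers, and all 8 passed the filter on low counts. Bulk RNA-seq was done on regulatory T (Treg) cells of 8-week-old C57BL/6 mice, with 1 library in each of 6 groups. The wild-type groups came from MondoA+/+Foxp3Cre mice and the knockout groups from MondoAfl/flFoxp3Cre mice, so both genotypes carried Foxp3Cre and only the second carried floxed MondoA. MondoA is the product of Mlxip, a transcription factor that responds to glucose metabolites. Each genotype gave 3 states. Resting nTreg cells were sorted from spleen and lymph nodes as CD4+CD25hiYFP+. Stimulated nTreg cells were kept for 48 hours on plates coated with anti-CD3 at 5 µg/ml, with soluble anti-CD28 at 2 µg/ml and IL-2 at 100 U/ml. iTreg cells were polarized for 4 days from naive CD4+YFP-CD44loCD62Lhi cells, with agents that are not given in the sources used here.

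The model has limits that bear on these genes. CD25 is the protein of Il2ra, so the resting cells had been gated on 1 of the 8 chains. Cre was driven from Foxp3, and the naive cells that gave iTreg cells were YFP negative when sorted. The labels do not say whether libraries came from single or pooled animals, so p-values measure only the spread between these libraries. That spread may be technical, and it includes any genotype difference that is specific to a state. In bulk RNA, fewer cells of a type and less RNA per cell cannot be told apart.

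Il2rg encodes the common gamma chain, which is shared by the receptors for IL-2, IL-4, IL-7, IL-9, IL-15 and IL-21 and signals through JAK3. Il2rb encodes a signalling chain of the IL-2 and IL-15 receptors, and Il2ra and Il15ra encode chains that raise affinity for IL-2 and IL-15. Il4ra, Il7r, Il9r and Il21r encode the signalling chains that pair with the common gamma chain for IL-4, IL-7, IL-9 and IL-21. These chains use JAK1 and STAT factors, and those of Il4ra and Il7r also serve in other receptors. Treg cells depend on IL-2 and are known for high Il2ra and low Il7r.

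Il2ra and Il7r moved in opposite directions and further than the other abundant chains, so their promoter windows are shown. The windows are RefSeq sequences on GRCm38.p6, from 250 bases before to 50 bases after the annotated start. Of the 8 chains 7 had a window, Il15ra had 2, and Il2rb had none. Il2ra lies at chr2:11642542-11642841 on the plus strand. Il7r lies at chr15:9529827-9530126 on the minus strand. Capitals mark a match to an NF-kB-type motif (GGGA, 4 bases of any kind, CC) in Il2ra and to the STAT-type motif TTCNNNGAA in Il7r.
Il2ra: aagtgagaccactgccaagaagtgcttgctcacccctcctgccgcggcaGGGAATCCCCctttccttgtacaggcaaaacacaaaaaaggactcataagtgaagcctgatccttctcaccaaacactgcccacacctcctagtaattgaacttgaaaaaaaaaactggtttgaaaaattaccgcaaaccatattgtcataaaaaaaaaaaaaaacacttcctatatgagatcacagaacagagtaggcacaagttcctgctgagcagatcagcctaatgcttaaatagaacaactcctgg
Il7r: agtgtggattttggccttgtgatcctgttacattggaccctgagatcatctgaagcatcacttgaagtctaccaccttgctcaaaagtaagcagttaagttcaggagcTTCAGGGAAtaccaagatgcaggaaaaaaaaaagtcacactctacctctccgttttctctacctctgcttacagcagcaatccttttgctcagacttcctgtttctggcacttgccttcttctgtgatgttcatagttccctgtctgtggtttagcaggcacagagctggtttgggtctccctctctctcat

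The Il2ra match begins at -201 and the Il7r match at -142, counted from the start. Among 32851 windows of this length, 20.73% hold that NF-kB-type motif and 8.3% hold TTCNNNGAA on either strand. Il21r held the only forkhead-type match, to GTAAACA on the minus strand at -38, a motif in 3.65% of windows, and it also held an NF-kB-type match at -231. The E-box CACGTG, present in 7.15% of windows, was in none of the 8 windows of the 7 chains searched, which leave out Il2rb. Motifs were searched on both strands and may overlap, and a match is a description of letters only. Il2ra and Il15ra are neighbours on chromosome 2 with 1 annotated gene between them, Gm39759, which is not protein coding. Il4ra and Il21r are neighbours on chromosome 7 with 0 genes between them. Il7r and Il2rb share chromosome 15, but 879 annotated genes lie between them.

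Libraries held 9760285 to 10185664 expected counts, and Foxp3 stood at 482 to 744 CPM (counts scaled to library size with TMM factors). The known MondoA target Txnip was lower in all 3 knockout libraries (log2 fold -2.15, SE 0.185, edgeR adjusted p = 0.00171). Mlxip itself was lower in each but did not pass (log2 fold -0.82, adjusted p = 0.239), and which exons were floxed is not given in the sources used here. Of the 6 T cell and 6 Treg marker genes, none differed 2-fold between genotypes in resting or stimulated cells; in iTreg cells 1 did, Ikzf2, with 334 counts in the wild-type and 130 in the knockout library. Summed B cell markers came to 457 CPM in the wild-type and 699 CPM in the knockout resting library, with none of the 10 at 0. Erythroid markers summed to 91.4 and 12.1 CPM in those libraries. Summed myeloid markers stood at 68.8 and 67.6 CPM in them and at 4.79 to 28.3 CPM elsewhere. The part of these cells in the results below was not tested.

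Il2rg and Il2rb, the signalling pair of the IL-2 receptor, were the most abundant chains in resting cells, and Il2ra overtook both after stimulation and in iTreg cells. Levels between genes are compared here as deposited FPKM, which is scaled to transcript length. In resting cells Il2rg averaged 391 FPKM and Il2rb 321 FPKM over both genotypes, and their ranges overlapped. Il2ra averaged 145, Il7r 94.5 and Il4ra 74.6 FPKM, and in that order each range overlapped the next. Il21r averaged 45.2, Il15ra 8.95 and Il9r 3.95 FPKM, with no overlap among them. In stimulated cells the order by mean FPKM was Il2ra at 768, Il2rb at 389, Il2rg at 312, Il4ra at 73.5, Il21r at 63.7, Il7r at 18.5, Il15ra at 9.27 and Il9r at 1.23, and no neighbouring ranges overlapped. In iTreg cells it was Il2ra at 675, Il2rg at 439, Il2rb at 241, Il4ra at 74.7 and Il21r at 47.4, again without overlap. Il7r at 9.54 and Il15ra at 6.11 FPKM overlapped there, and Il9r was last at 0.18 FPKM.

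**Figure D1:**
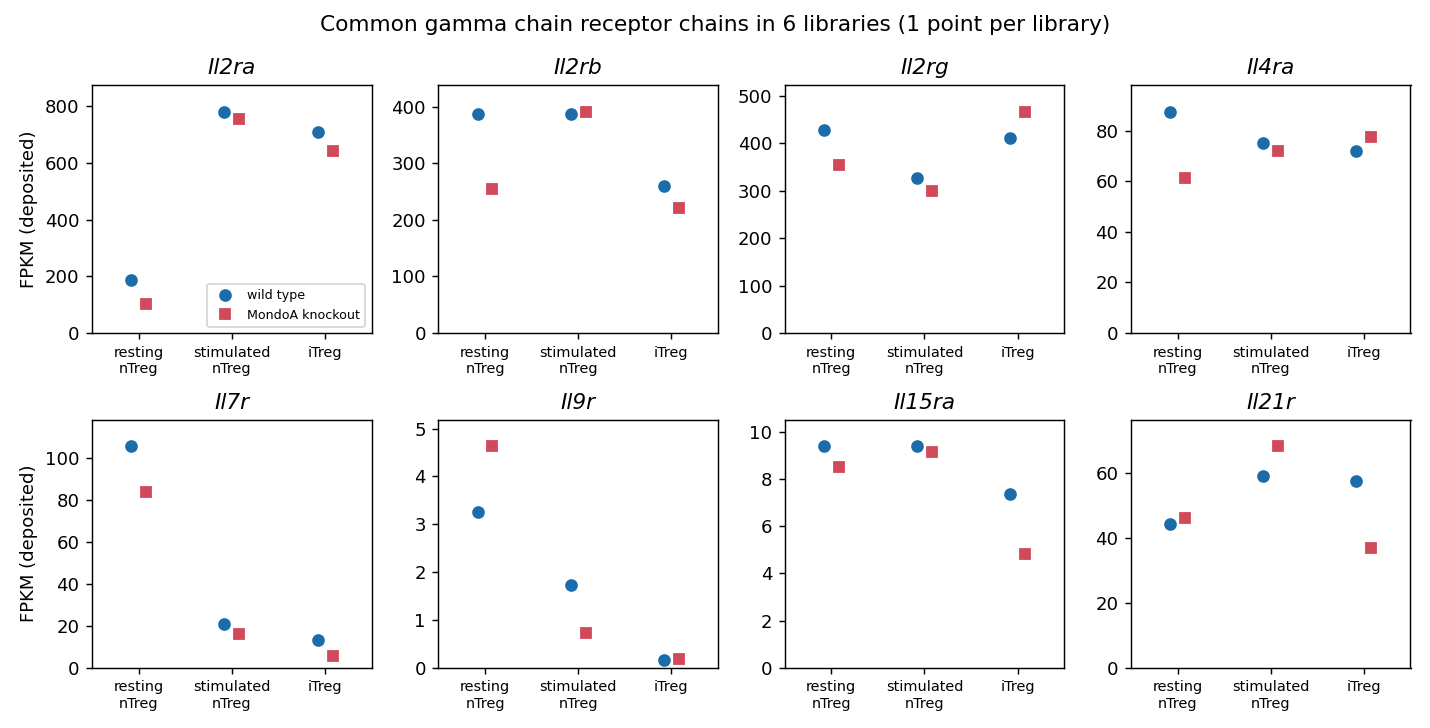
Deposited FPKM (linear axis from 0, own scale per gene) of the 8 chains in resting nTreg, stimulated nTreg and iTreg cells, with 1 circle for the wild-type and 1 square for the knockout library. Il2ra stands at 103.68 and 185.83 FPKM at rest and between 641.44 and 780.72 FPKM in the other 4 libraries, while Il7r and Il9r stand highest at rest.

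The makeup of the family shifted with these levels. Summed over the 8 chains, FPKM was 1250 in wild-type and 917 in knockout resting cells, and between 1455 and 1659 in the other libraries. Il2ra held 14.9% and 11.3% of that sum at rest and 44.1 to 47.1% after stimulation or polarization. The Il2ra to Il2rb ratio of FPKM was 0.480 and 0.407 at rest, 2.02 and 1.93 in stimulated cells and 2.73 and 2.89 in iTreg cells, with the wild-type value first. Thus Il2ra transcripts passed from below to above those of Il2rb in FPKM in both genotypes. Il2rb to Il2rg was 0.906 and 0.719 at rest, 1.19 and 1.31 after stimulation, and 0.632 and 0.476 in iTreg cells. The Il2ra to Il7r ratio rose from 1.76 and 1.24 at rest to 37.3 and 47.1 after stimulation and 53.4 and 110 in iTreg cells.

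State differences were tested across all 12848 genes that passed the filter, in 1 edgeR model of state and genotype with 2 residual degrees of freedom, where the wild-type and knockout libraries stand as the replicates of a state. Each of these tests asked how activation through CD3, CD28 and IL-2, or in vitro polarization, differed from freshly sorted cells. Stimulation against rest called 46.4% of all genes, 24.1% higher and 22.3% lower, and called 3 of the 8 chains, so that share is near the background. The resting libraries serve both state comparisons, so their values are not independent. Polarization also changes the starting cell and the sort, and these cannot be told apart from it.

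Il2ra, the alpha chain of the IL-2 receptor, rose with stimulation and in iTreg cells. Its normalised level was 808 and 439 CPM at rest, wild type first, then 3523 and 3515 CPM in stimulated cells and 3151 and 2981 CPM in iTreg cells. Every resting value lay below every other value, and the resting pair was the one furthest apart. The edgeR log2 fold was 2.53 (SE 0.281, adjusted p = 0.000129) for stimulation, or 5.78-fold. For iTreg against resting cells it was 2.34 (SE 0.279, adjusted p = 0.000176), or 5.05-fold. Between iTreg and stimulated cells the log2 fold of -0.20 did not pass (SE 0.264, adjusted p = 0.665).

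Il7r, the IL-7 receptor alpha chain that also pairs with the TSLP receptor, fell in both comparisons with rest. It stood at 333 and 257 CPM in resting, 68.6 and 54.3 CPM in stimulated, and 42.8 and 19.7 CPM in iTreg cells, wild type first. The 3 states did not overlap, and the knockout library was the lower of the pair in each. The log2 fold was -2.27 for stimulation (SE 0.232, edgeR adjusted p = 8.17e-05) and -3.31 for iTreg against rest (SE 0.245, adjusted p = 1.08e-05). Il7r was also lower in iTreg than in stimulated cells, by a log2 fold of -1.04 (SE 0.232, adjusted p = 0.0167). That last call was lost without the knockout stimulated library, where the log2 fold was -0.86 and the adjusted p 0.0988, and without genotype in the model, where they were -0.97 and 0.123.

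Il9r, the private chain for IL-9, was the scarcest member and fell in all 3 comparisons. Its counts were 99 and 143 in resting, 54 and 23 in stimulated, and 5 and 6 in iTreg libraries. The states did not overlap, and at 5 and 6 counts the iTreg level is little above the counting floor of 3. Stimulation gave a log2 fold of -1.64 (SE 0.416, edgeR adjusted p = 0.0105) and iTreg against rest -4.37 (SE 0.528, adjusted p = 0.000185). Without the knockout resting library the stimulation fold of Il9r was -1.03 (adjusted p = 0.0966), and without the knockout stimulated library it was -0.88 (adjusted p = 0.214). In iTreg against stimulated cells it was -2.74 (SE 0.563, adjusted p = 0.0112), and the call was lost without the wild-type stimulated library (-1.84, adjusted p = 0.0587) and with limma on log2(FPKM + 1) (-0.88, adjusted p = 0.0589). A pseudogene, Gm12109, overlaps Il9r in the annotation and a long noncoding RNA, Gm39760, overlaps Il2ra; strand was not given, so their reads cannot be told apart.

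The other 5 chains did not pass the edgeR test in any state comparison, although some passed in alternatives given below. Il2rg, the shared chain, ranged from 511 to 801 CPM, with log2 folds of -0.25 (edgeR adjusted p = 0.364) for stimulation and 0.25 (adjusted p = 0.361) for iTreg against rest. Il4ra, the IL-4 receptor chain, stood between 301 and 441 CPM and gave 0.07 (adjusted p = 0.812) and 0.10 (adjusted p = 0.748). Il2rb stood at 1026 and 657 CPM at rest, 1063 and 1110 after stimulation and 704 and 628 in iTreg cells, with folds of 0.39 (adjusted p = 0.194) and -0.32 (adjusted p = 0.275). The resting pair of Il2rb thus spanned most of its range over the states. Il15ra, the IL-15 receptor alpha chain, rested on 78 to 152 counts per library, and its log2 folds were 0.08 (adjusted p = 0.809) and -0.52 (adjusted p = 0.12). The Il15ra fold for iTreg against rest was -0.80 without the wild-type iTreg library, a setting in which it passed. Il21r, the IL-21 receptor chain, stood at 113 and 114 CPM at rest and 156 and 186 CPM after stimulation. That difference of 0.58 was just short of the threshold (SE 0.223, adjusted p = 0.0557) and passed in 6 of 15 alternative settings. In iTreg cells Il21r stood at 150 and 101 CPM, on either side of the resting values.

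Against stimulated cells, iTreg cells differed in 14.4% of all genes and in 2 of the 8 chains, Il7r and Il9r, both lower; 7.62% of all genes were lower. The iTreg comparison with rest called 47.7% of all genes, 23.9% higher and 23.8% lower, and the same number of chains as stimulation, 3 of 8. Over the 8 chains the median log2 fold was 0.08 for stimulation, -0.11 for iTreg against rest and -0.53 for iTreg against stimulated cells. For all genes these medians were -0.00, -0.01 and -0.05. With that last median below 0, more genes lay below 0 than above between iTreg and stimulated cells. A shift of iTreg against stimulated cells below 0 was seen in 6 of the 8 chains, and Il2rb came nearest to a further call (log2 fold -0.71, SE 0.23, adjusted p = 0.0702). It passed in 4 of 15 alternatives, among them DESeq2 (-0.68, adjusted p = 0.0254). Without the wild-type iTreg library Il2rg (0.71, adjusted p = 0.0274), Il15ra (-0.88, adjusted p = 0.0497) and Il21r (-0.82, adjusted p = 0.0123) passed as well.

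**Figure D2:**
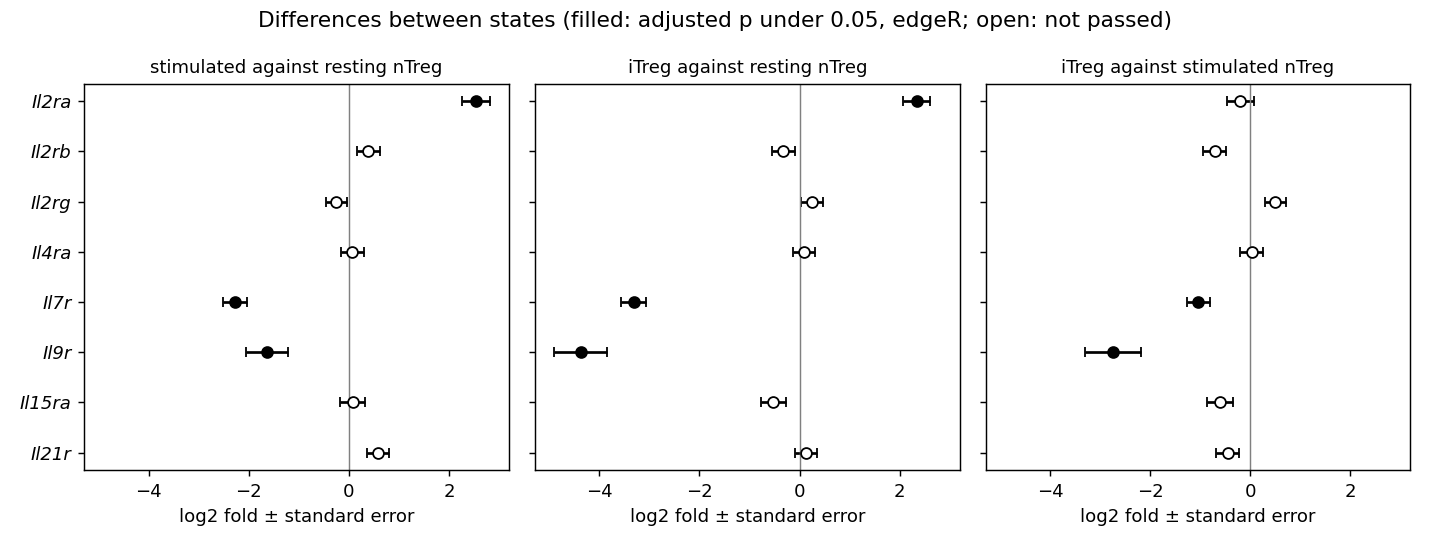
Log2 fold of each chain between states from the edgeR model, with standard errors as bars; filled points have an adjusted p under 0.05 and open points do not. Il2ra lies at 2.53 and 2.34 against rest, Il7r at -2.27 and -3.31 and Il9r at -1.64 and -4.37, while the other 5 chains are drawn open in all 3 panels.

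The genotype comparison asked whether loss of MondoA in Foxp3-expressing cells altered these chains. In the edgeR model of an effect shared by the 3 states, 22 genes, or 0.171% of those tested, were called and 0 of the 8 chains. At an unadjusted p under 0.05 there was 1 chain, Il7r (log2 fold knockout over wild type -0.59, SE 0.186, adjusted p = 0.511), and DESeq2 and limma on FPKM also called 0 chains. Il2ra gave -0.32 (SE 0.218, adjusted p = 0.67), Il2rb -0.25 (SE 0.188, adjusted p = 0.691) and Il15ra -0.24 (SE 0.208, adjusted p = 0.726). The remaining chains, Il9r, Il4ra, Il21r and Il2rg, lay between -0.18 and -0.05. In this model a genotype effect that is specific to a state counts as error, so each state is described next.

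Within a state each genotype had 1 library, so ratios carry 95% counting intervals that cover counting error only, and no p-value. In resting cells 5 of the 8 chains had intervals wholly below 0, as did 23% of all genes with at least 50 counts. Intervals narrow as counts grow, and that share was not matched to the high counts of these 5 chains. Il2ra, furthest below 0, was lower in the knockout by a log2 fold of -0.88 (-0.93 to -0.83), a ratio of 0.543. Il2rb, its partner, gave -0.64 (-0.69 to -0.60), a ratio of 0.640. Il4ra gave -0.55 (-0.62 to -0.48), Il7r -0.37 and Il2rg -0.31 (-0.36 to -0.26). These 5 genes include every chain of the high-affinity IL-2 receptor. Il15ra (-0.17, -0.51 to 0.17) and Il21r (0.02, -0.10 to 0.14) had intervals across 0, and Il9r was higher at 0.46 (0.09 to 0.85). At 2-fold, which 2.87% of genes with at least 50 counts reached in resting cells, the count of chains was 0 of 8. At 1.5-fold, a size chosen after the values were seen, 2 of 8 chains were lower, against 4.71% of all genes.

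In stimulated cells the ratios of the IL-2 receptor chains lay close to 1. Il2ra gave a log2 fold of -0.00 (-0.02 to 0.02), Il2rb 0.06 (0.02 to 0.10) and Il2rg -0.09 (-0.14 to -0.03). Il4ra and Il15ra also had intervals across 0. Il7r was lower at -0.34 (-0.50 to -0.17) and Il21r higher at 0.25 (0.16 to 0.35). Only Il9r passed 2-fold, at 54 counts in wild-type and 23 in knockout cells (-1.14, -1.98 to -0.48), where 0.513% of all genes were at least 2-fold lower.

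In iTreg cells Il7r was the chain that passed 2-fold, with 420 counts in the wild-type and 192 in the knockout library, a ratio of 0.462 with an interval of -1.38 to -0.87 on the log2 scale. It was 1 of 7 chains with at least 50 counts, where 5.25% of all genes were 2-fold lower. Il21r gave -0.57 (-0.69 to -0.46) and Il15ra -0.59 (-1.03 to -0.18), so that Il7r and Il15ra were the 2 chains at least 1.5-fold lower, in a state where 14.8% of all genes were. Il21r made a count of 3 with median-of-ratios factors, total counts, FPKM or the trend over transcript length removed. The knockout was thus lower for Il7r, Il15ra and Il21r in this pair, which also held many other lower genes. Il2rb gave -0.16 (-0.21 to -0.11), and Il4ra gave 0.17 (0.10 to 0.23), or 0.46 with the trend over transcript length removed. Il2ra gave -0.08 and Il2rg 0.24, but with that trend removed these became 0.12 and -0.01, so neither has a settled direction. In the same pair, summed B cell markers stood at 240 and 366 CPM and CD8 markers at 99.7 and 183 CPM, wild type first.

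**Figure D3:**
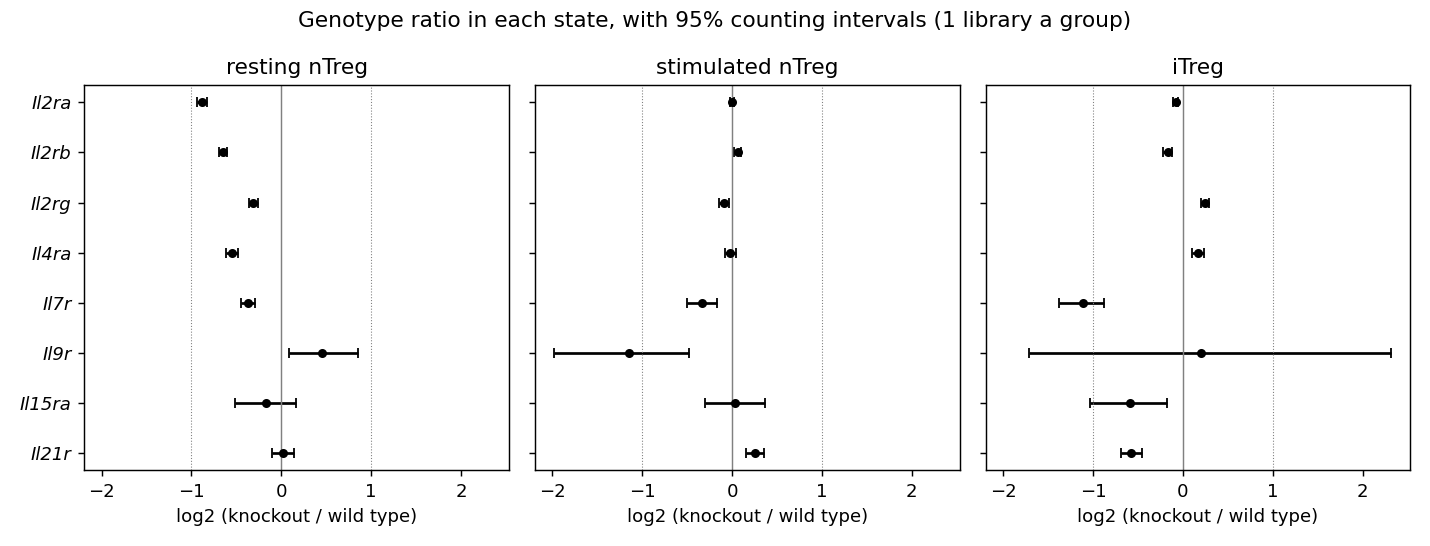
Log2 ratio of knockout to wild type for each chain in each state, with 95% counting intervals as bars and dotted lines at a 2-fold difference. In resting cells Il2ra, Il2rb, Il4ra, Il7r and Il2rg lie to the left of 0 (-0.88 to -0.31); in stimulated cells the same chains except Il7r lie within 0.09 of 0.

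The same 4 nTreg libraries can be read as a response to stimulation in each genotype, which gives no independent evidence. Il2ra rose by a log2 fold of 2.12 in wild-type and 3.001 in knockout cells, a difference of 0.88 (95% counting interval 0.82 to 0.93). The stimulated levels met at 3523 and 3515 CPM, so the difference lay in the resting libraries. For Il2rb the responses were 0.05 and 0.76, and for Il4ra -0.17 and 0.36. Their differences were 0.71 (0.65 to 0.76) and 0.53 (0.44 to 0.62), so 3 of the 8 chains reached 0.5, against 9.83% of the 10820 genes with at least 50 counts in an nTreg library. Il4ra fell short of 0.5 with total counts or FPKM (0.45) and with the length trend removed (0.48), which left 2 chains. For Il7r the responses were nearly equal, at -2.28 and -2.24. Il9r went the other way, with -0.84 and -2.44, a difference of -1.60 (-2.39 to -0.80) that rests on 23 counts in its lowest library. Differences above 0 were seen in 7 chains, against 52.2% of all genes, and in 6 when scaling used total counts alone, where Il7r gave -0.05.

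**Figure D4:**
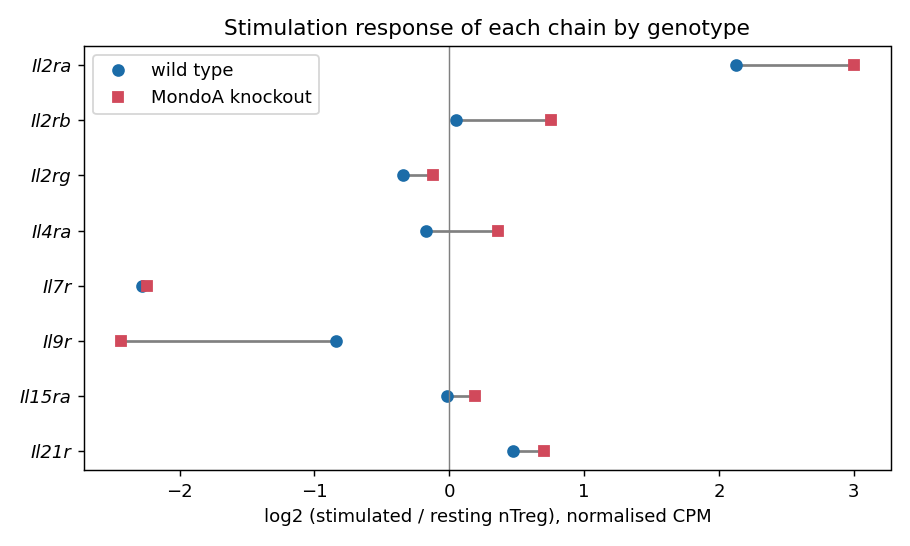
Log2 ratio of stimulated to resting nTreg cells (normalised CPM) for each chain, circles for wild type and squares for knockout, joined by a line. Il2ra moves from 2.12 in wild type to 3.001 in knockout, Il2rb from 0.05 to 0.76 and Il4ra from -0.17 to 0.36, while the 2 points of Il7r nearly coincide.

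Genes that IL-2 and STAT5 are known to induce were measured alongside the receptors. Of 15 such genes, 10 rose with stimulation, 2 fell and 3 did not pass, and their median log2 fold was 1.21. Among all genes 24.1% rose and 22.3% fell. Lta, the cytokine lymphotoxin alpha, rose by 2.48 (SE 0.474, edgeR adjusted p = 0.00256) and Socs1, an inhibitor of JAK signalling, by 2.47 (SE 0.259, adjusted p = 9.25e-05). Osm, the cytokine oncostatin M, rose by 1.95. Pim1, a survival kinase that STAT5 induces, fell instead by 1.85 (adjusted p = 0.000129). In iTreg cells 9 rose and 3 fell against rest, where 23.9% of all genes rose and 23.8% fell. Lta stood at 3.40 and Socs2, another inhibitor of cytokine signalling, at 2.63. Against stimulated cells 3 rose and 2 fell, where 14.4% of all genes were called and 7.62% were lower. The largest fold among the called response genes was -3.71 for Prdm1, the gene of the repressor Blimp-1 (edgeR adjusted p = 0.000191).

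Between genotypes 0 of these 15 genes passed the edgeR test of a shared effect and 1 had an unadjusted p under 0.05, and DESeq2 and limma also called 0. In the resting pair, however, 13 of the 15 lay below 0 in the knockout, with a median log2 fold of -0.54. For all genes with at least 50 counts the median was 0.01, so about as many lay below 0 as above. At 1.5-fold 6 of the 15 were lower, against 4.71% of all genes. Lta was at 72.7 CPM in the wild-type and 29.4 CPM in the knockout library, a log2 fold of -1.30. Myc, a growth regulator, stood at 183 and 98.1 CPM, and Ccnd2, which encodes cyclin D2, at 404 and 220 CPM. Pim1 and Prdm1 were the ones above 0, at 1052 and 1161 CPM and at 21.5 and 27.2 CPM. Il2ra is itself known to be induced by IL-2 through STAT5, and it was counted with the receptor chains. In stimulated and iTreg cells 6 of the 15 lay below 0, with medians of 0.11 and 0.29. The medians of all genes with at least 50 counts were 0.03 and 0.06 there.

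**Figure D5:**
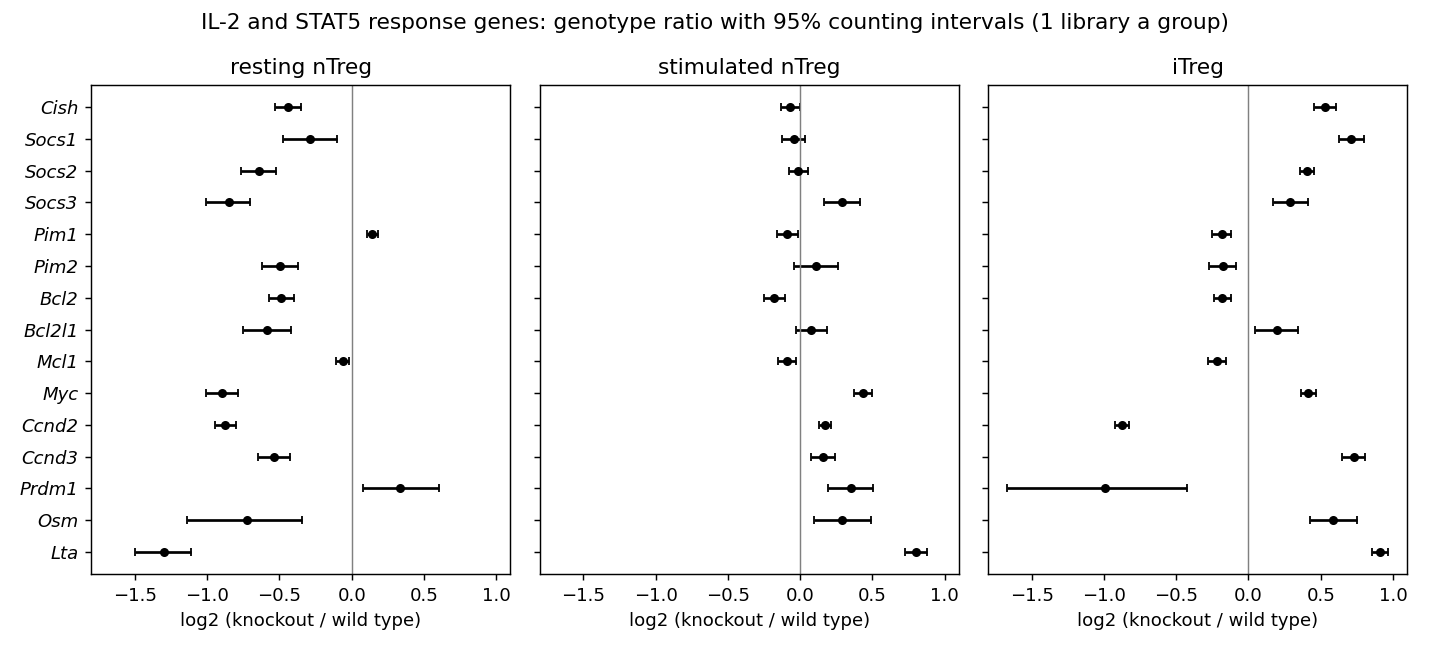
Log2 ratio of knockout to wild type for the 15 IL-2 and STAT5 response genes in each state, with 95% counting intervals as bars (1 library a group). In resting cells 13 of the 15 points lie to the left of 0; in stimulated and in iTreg cells 6 do.

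Among the kinases and STAT factors that the receptors use, 4 of 9 fell with stimulation and the other 5 did not pass. Of all genes 22.3% fell. Those that fell were Stat5b (log2 fold -1.48, SE 0.193, edgeR adjusted p = 0.000322), Jak1 (-1.28, SE 0.197, adjusted p = 0.000779), Jak2 (-1.09) and Tyk2 (-0.65). Jak1 encodes the kinase bound by the signalling chains that pair with the common gamma chain. The Tyk2 call was lost without the knockout resting, knockout stimulated or wild-type stimulated library (adjusted p = 0.242, 0.304 and 0.0562). In iTreg cells Jak1 at -1.31, Stat5b at -1.15 and Tyk2 at -0.95 were again lower than at rest, Tyk2 not without the knockout resting library (adjusted p = 0.0613). So transcripts of Jak1 and Stat5b fell in the same libraries in which Il2ra rose. Of 10 adaptors and PI3K genes, Ptpn6, the phosphatase SHP-1, rose by 1.23 with stimulation and Grb2 fell by 0.57, a call lost without any 1 of the 4 nTreg libraries (adjusted p = 0.134 to 0.356). In iTreg cells 2 rose and 4 fell against rest, beside 23.9% and 23.8% of all genes. Between genotypes the edgeR test, DESeq2 and limma each called 0 genes of either list, and in edgeR none had an unadjusted p under 0.05.

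Transcription factors known to act on receptor chain genes moved with the states as well. With stimulation Klf2, a quiescence factor, fell by 2.81 (SE 0.288, edgeR adjusted p = 8.33e-05), and Foxo1, which activates Il7r in T cells, fell by 0.89 (SE 0.207, adjusted p = 0.00673). Ets1 (-1.08) and Runx1 (-0.59) fell too, and Tbx21, the gene of T-bet, rose by 3.82. Without the wild-type stimulated library the calls of Foxo1 (adjusted p = 0.077) and Ets1 (adjusted p = 0.058) were lost, as was that of Foxo1 without the knockout resting library (adjusted p = 0.0902). In iTreg cells 5 of the 10 rose against rest, beside 23.9% of all genes. They included Gfi1, a repressor of Il7r in T cells (0.86), and Foxp1 (0.81), while Ets1 fell by 1.61. Klf2 was higher in iTreg than in stimulated cells by 2.16, while Il7r was lower by 1.04 on the same scale.

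The genes of the 6 ligands were scarce, with 0 to 16 counts in any library. Il15 and Il21 were the ones with enough counts to test, and both fell with stimulation (log2 folds -2.93 and -2.21, edgeR adjusted p = 0.0248 for each). With DESeq2 neither passed (adjusted p = 0.0719 and 0.187), nor did Il15 without either wild-type nTreg library (0.196 and 0.167) or Il21 without any 1 nTreg library (0.0764 to 0.156). Crlf2, the partner of Il7r in the TSLP receptor, fell in iTreg cells by 1.28 against rest (SE 0.26, adjusted p = 0.00334) and by 1.04 against stimulated cells (adjusted p = 0.0255). The first of these calls was lost without the knockout resting library (adjusted p = 0.081). The second was lost without the knockout iTreg (0.0807) or wild-type stimulated library (0.157) and without genotype in the model (0.0819). Its iTreg values were 37.7 CPM (wild type) and 22.6 CPM (knockout), so the knockout library was lower for both chains of that receptor. Il13ra1, which pairs with Il4ra, held 26 and 59 counts at rest and 0 to 6 in the other libraries.

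Receptor chains of other cytokine families gave a comparison group of 21 tested genes. With stimulation 3 rose and 11 fell, where 24.1% of all genes rose and 22.3% fell. Their median log2 fold was -0.67 beside 0.08 for the IL-2 family, and the difference between these medians was not tested. Csf2rb, the shared beta chain of the GM-CSF, IL-3 and IL-5 receptors, fell by 4.43, whereas Il2rg, the shared chain here, did not pass. Csf2rb was scarce, with 222 and 204 counts at rest and 16 and 4 after stimulation, wild type first. Summed myeloid markers were also lower after stimulation, at 28.3 and 19.0 CPM against 68.8 and 67.6 CPM at rest. The part of myeloid cells in the Csf2rb fall was not tested. Il12rb2, an IL-12 receptor chain, rose by 2.98. In iTreg cells 2 rose and 10 fell against rest, beside 23.9% and 23.8% of all genes. Csf2rb stood at -5.35, with 6 and 4 counts in the iTreg libraries, and Il12rb2 at 4.98.

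For each chain the genes of closest pattern were sought among 9875 genes, as the smallest root mean square difference of centred log2 CPM over the 6 libraries. Il2ra was nearest to Timeless (0.098) and Mcm8 (0.104), which act in DNA replication. Tfap4 lay at 0.103 from Il2rb. Il4ra was nearest to Osgep (0.0599), Il15ra to Prkca (0.0617) and Il21r to Ap1g1 (0.0598). The profile of Il2rg was nearest to that of Rps6, a ribosomal protein gene (0.034). Il7r was nearest to Nod1 (0.180) and Il9r to Ebi3 (0.341). The measure is not scaled to the range of a gene, so larger differences for these 2 wide-ranging chains do not mean unlike patterns. Nod1 fell from 94.3 and 82.4 CPM at rest to 11.1 and 7.58 CPM in iTreg cells, wild type first.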

How the data were processed

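RNA was extracted with Trizol and sequenced in 6 libraries, 1 per group, and groups were taken from the labels. The deposited expected counts per gene were, per the file headers, estimated read numbers without normalisation, and they were rounded to whole numbers for the tests. The deposited FPKM values, which the authors had scaled to length and library size, were used for levels between genes and for alternatives. Bowtie2, HISAT and mm9 appear in the submitters' processing notes. No quantifier, annotation or strand setting was given in the sources used here. Of the listed values 76.0% were whole within 0.005, and those of Il2ra, Il7r and Il21r were not whole in any library, so some of their reads were divided with other features by estimation. Identifiers were joined to symbols for 17711 of 17759 genes.

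Counts were scaled with TMM factors (0.961 to 1.06) in edgeR 4.0.16 under R 4.3.3. The quasi-likelihood test used an additive model of state and genotype on 12848 genes left by filterByExpr (minimum count 10, total 15), with Benjamini-Hochberg adjustment, a threshold of 0.05 and a common dispersion of 0.0297. Standard errors were derived from the F statistic. Within a state, log2 ratios were taken on CPM after a prior count of 2, scaled to library size, was added to the counts. They carry exact conditional (Clopper-Pearson) 95% intervals, and genes were counted at 2-fold with at least 50 counts in the higher library. Alternatives were DESeq2 1.42.0, limma 3.58.1 on log2(FPKM + 1) and log2(FPKM + 0.1), median-of-ratios factors, other filters, removal of a length trend (lowess span 0.3), no second factor, the libraries of the compared states alone and each library left out. The edgeR script was tested on simulated data.

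The chains and gene lists were chosen with earlier results of these data known, so they give no independent support to a pattern. Named were all 8 chains, Mlxip, Txnip and Foxp3, up to 4 genes per list and comparison that passed and had the largest log2 folds, and the 2 genes of nearest pattern per chain (mean CPM at least 5). Genes of the response list were also named from the resting pair, and Ets1, Runx1, Foxo1, Gfi1, Foxp1, Crlf2 and Il13ra1 for their known part in these receptors, after their values were seen. Results for a few other genes that the rule named are not reported here.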

Additional observations from a re-analysis of the deposited data

Results flagged for a closer look

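For 5 chains the genotype ratio had counting intervals on opposite sides of 0 in different states, as it did for 16.9% of the 11072 genes with at least 50 counts in a library. That share was not matched to the counts of these chains, and intervals narrow as counts grow. With 1 library a group the difference itself was not tested. Values below are differences between states in the log2 ratio of knockout to wild type. Il2rb differed by 0.71 between stimulated and resting cells, where it was lower in the knockout at rest, and by -0.23 between iTreg and stimulated cells. Il4ra differed by 0.72 between iTreg and resting cells. Il2rg differed by 0.56 between iTreg and resting cells and by 0.33 between iTreg and stimulated cells, but its ratio in iTreg cells went from 0.24 to -0.01 once the length trend was removed. Il21r differed by -0.83 between iTreg and stimulated cells, being higher in the knockout after stimulation and lower in iTreg cells. Il9r differed by -1.60 between stimulated and resting cells, on 23 to 143 counts per library. B cell and erythroid marker sums also differed between the resting libraries, and their part in these values was not tested.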

How the results depend on the processing

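Il2ra and Il7r kept their calls against rest in all 15 alternatives for both comparisons, and Il9r for iTreg against rest. Calls of chains that were lost are given with the results. Among the other named genes, 6 lost a call at least once for stimulation against rest, 3 for iTreg against rest and 8 for iTreg against stimulated cells; those of genes named in the text stand beside their values, and Txnip lost its genotype call without state in the model (log2 fold -1.95, adjusted p = 1.0). The count of chains called between iTreg and stimulated cells, 2, became 1 with limma on log2(FPKM + 1) and 1 without genotype in the model, and 1 to 5 with a library left out. Genes with a genotype effect numbered 22, but 67 with DESeq2, 67 with no filter, 12 with FPKM + 0.1, 11 with FPKM + 1, 0 without state in the model (59 at an unadjusted p under 0.05) and 34 to 305 with a library left out. Leaving out a library gave 3794 to 7575 genes for stimulation against rest, 4053 to 6541 for iTreg against rest and 1298 to 3154 for iTreg against stimulated cells. At 1.5-fold 2 chains passed in resting and 2 in iTreg cells.

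No value that changed sign had passed a test. With a library left out, genotype log2 folds ranged from -0.20 to 0.078 for Il2rg, -0.29 to 0.072 for Il4ra, -0.84 to 0.42 for Il9r and -0.28 to 0.14 for Il21r; Il9r was also 0.077 without state in the model. Stimulation against rest ranged from -0.23 to 0.40 for Il4ra and -0.12 to 0.29 for Il15ra. iTreg against rest ranged from -0.17 to 0.42 for Il4ra and -0.24 to 0.47 for Il21r. iTreg against stimulated cells ranged from -0.42 to 0.054 for Il2ra and -0.22 to 0.24 for Il4ra. The causes were not tested. The resting count of 6 response genes at least 1.5-fold lower was 6 or 7 in every alternative scaling tried, which were chosen after the values were seen. No paired analysis was possible because the labels give no replicate numbers and each group has 1 library. With 1 library a group, sequencing depth limits Il9r and Il15ra and replication limits every genotype ratio.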
